A study of Etroplus suratensis with 2 samples.

Results

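Large Trinity components are groups of 10 or more contigs that share one component identifier in the assembled transcriptome of *Etroplus suratensis*, the green chromide, a brackish-water cichlid fish. They were found by removing the final g number from each contig name and counting the rows that shared what was left. The rule used names alone and no measured value. It gave 551 components with 6952 contigs, out of 69911 components with 96646 contigs in all. They were set against the 10031 components of 2 to 9 contigs and the 59329 of a single contig.

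The reads came from 1 pooled library of each sex. The male pool held RNA of brain, liver, kidney, spleen, muscle and testis, and the female pool held RNA of brain, liver, kidney, spleen, muscle and ovary. Strain, age and the number of fish are not given in the labels, and they name no treatment. Depth was 19788173 counts for the male and 24649400 for the female library. With 1 library per pool there was no replicate, so no test was made and no p-value is given. Intervals are 95% intervals. Those on reads cover counting error only, since PCR reads that carry no molecular identifier are not separate molecules. Those on shares of components treat components as independent, which they are not. The pools differ at once in sex, in gonad (testis or ovary) and in library, so these cannot be told apart in any ratio between them. Nor can a difference in the mix of the organs. In pooled tissue, fewer cells of a type and less RNA per cell cannot be told apart. The table pairs no gene name, sequence or genome position with a contig, so the tissue labels could not be checked against marker genes and no contig is given a function here.

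Trinity builds transcripts from short reads without a genome. It first extends overlapping words of sequence into linear contigs, then joins those that share sequence into a component, and finally resolves each component into transcripts, which it groups into units called genes. The rows here, called contigs, are named to such a unit by the g number and carry no transcript number. A difference between contigs of a component is thus a difference between these units. Alleles, closely related gene copies, shared repeats, overlapping transcripts of neighbouring genes and splice variants not grouped into the same unit can all place several contigs in one component. Which of these made up a given component was not analysed here. How reads that fit several contigs were counted is not given in the sources used here. Contigs of one component can share sequence, so the counts of single contigs within a component are less certain than the sum over the component.

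The large components were few but held a large part of the reads. They made up 0.788% of the components, 7.19% of the contigs and 14.8% of the assembled bases. Their share was 26.0% of the male library (25.97 to 26.01, a 95% Wilson interval) and 29.9% of the female library (29.88 to 29.92). Single-contig components, 84.9% of all, accounted for 17.2% of the male and 16.2% of the female library. A large component had a median of 4490 male reads (quartiles 2171 and 8598.5) and 6562 female reads (quartiles 1994.5 and 14178). The median single-contig component had 5 male and 2 female reads. No large component lacked reads in either pool, with a lowest sum of 152 male and 48 female reads. Of the contigs in large components, 137 (1.97%) had no male read and 397 (5.71%) had no female read. Among single-contig components these numbers were 2494 (4.20%) and 14644 (24.7%).

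The number of contigs per large component had a median of 12 and a maximum of 24. Components of 10 to 12 contigs numbered 339, or 61.5%, and 14 components had 20 or more. The g numbers ran without a gap in all 551, as in all 69911 components, so no contig between the first and the last was missing from the table. Among the 100 most abundant components of each library, 43 were large in the male and 57 in the female pool. The 10 large components with the most male reads held 20.9% of all male reads in large components, and the 10 with the most female reads held 20.7% of the female ones. Of these components, 1 was in both sets. The like overlap was not computed for other kinds of component, so it is no result about large components.

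Reads within a large component were concentrated in few of its contigs, though less so than in smaller components, with higher median shares in the female pool. The contig with the most reads, called dominant here, held a median of 41.4% of a component's male reads (quartiles 31.3 and 57.0) and 48.6% of its female reads (quartiles 35.1 and 64.4). These values cover the 548 components with at least 100 reads in each pool. The dominant contig held over 50% of the male reads in 182 components and over 50% of the female reads in 252. It held over 80% in 34 components in male reads and 55 in female reads, and under 25% in 54 components in male reads and 27 in female reads. The effective number of contigs, 1 divided by the sum of squared read shares, had a median of 3.79 in the male and 3.08 in the female pool. It was lower in the female pool in 337 components, or 61.5%. Components of 2 to 9 contigs gave the same order in 64.8% of 4485. Their median dominant share was 72.0% in the male and 77.7% in the female pool. In those of 6 to 9 contigs it was 53.0% and 59.3%. By dominant share, the female pool was the more concentrated one in 57.7% of large components and 63.6% of those of 2 to 9 contigs. This share was 65.9% in large components with 1000 to 10000 reads, 50.7% in those with 10000 or more and 48.6% in those of 15 or more contigs. It was also 50.7% in components of 2 to 9 contigs with 10000 reads or more. There was no replicate to test it.

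The dominant contig was the same in both pools in 273 of the 548 components, or 49.8% (95% Wilson interval 45.6 to 54.0). In 248 components, or 45.3%, the change of dominant contig was beyond counting error, meaning that the exact interval of one contig's reads against the other's lay on opposite sides of 50% in the male and female pools. Over all 5033 components of 2 or more contigs with at least 100 reads in each pool, 21.4% had such a change. That share covers every depth together, and shares by depth follow. A component with more contigs has more candidates for the first place, and the share with the same dominant contig was lower the more contigs there were. It was 88.7% at 2 contigs, 76.6% at 3, 70.8% at 4 to 5, 61.4% at 6 to 9, 51.5% at 10 to 14 and 43.2% at 15 or more. In large components the share with the same dominant contig differed less over depth. It was 52.9% in the 17 large components with 100 to 1000 reads in both pools together, 51.5% in the 229 with 1000 to 10000 and 48.3% in the 302 with more. In components of 6 to 9 contigs with 1000 to 10000 reads it was 62.1%.

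**Figure D1:**
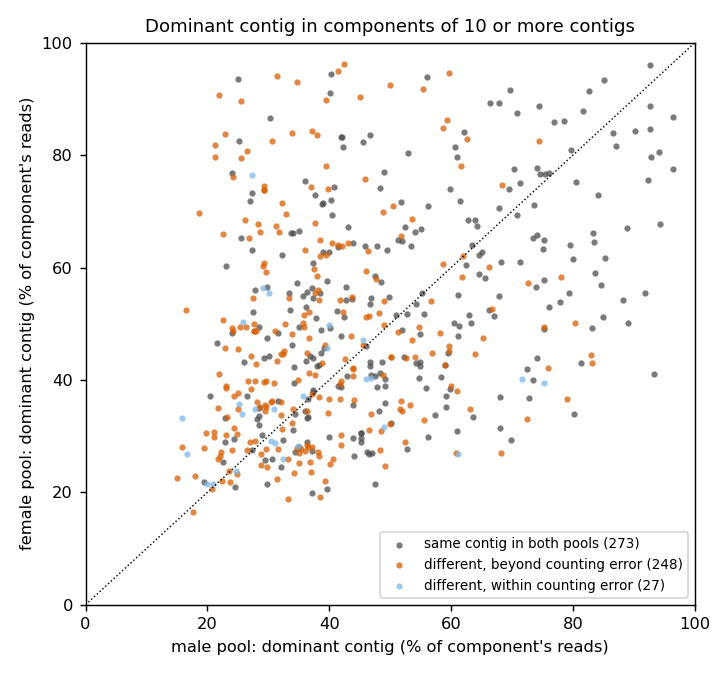
Each point is 1 of the 548 components of 10 or more contigs with at least 100 reads in each pool. The horizontal axis gives the dominant contig's percent of the component's male reads and the vertical axis that of its female reads, each pool with its own dominant contig, and the colour tells whether the contig was the same in both pools. Points with the same contig (273) and with different contigs beyond counting error (248) overlap over most of the range, and the medians are 41.4% on the male axis and 48.6% on the female axis.

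Where the dominant contigs differed, the first contig of one pool was often well down the order of the other. Among these 275 components, the male dominant contig ranked second in the female pool in 119 (43.3%), at rank 3 in 65 (23.6%) and at rank 4 or lower in 91 (33.1%). The female dominant contig ranked second in the male pool in 104 (37.8%), at rank 3 in 46 (16.7%) and at rank 4 or lower in 125 (45.5%). In 56 components the first and second contigs simply changed places. The difference between the read profiles of the pools, that is, the percent of reads that would have to move to another contig to make the profiles equal, had a median of 33.1% (quartiles 24.0 and 46.1) in large components. It was 26.2% in components of 6 to 9 contigs and 12.6% in all those of 2 to 9. Over the contigs of a component, Spearman's rho between male and female reads had a median of 0.80, and between male and female FPKM a median of 0.65. These are descriptions over 10 to 24 contigs that share a library and, for reads, the length of the contig.

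Longer contigs collect more reads, and the dominant contig was often a long one. Within a component, Spearman's rho between contig length and reads had a median of 0.78 in the male and 0.74 in the female pool. The dominant contig was the longest of its component in 218 cases (39.8%) in the male and in 177 (32.3%) in the female pool. It was among the 3 longest in 369 components by male reads and in 354 by female reads. The authors' FPKM, which divide by length, gave another picture. By FPKM the highest contig was the longest in 62 male and 71 female profiles, and was under 500 bases long in 79 male and 37 female profiles. It was the contig dominant by reads in 292 components in the male and in 351 in the female pool. The contig highest by FPKM was the same in both pools in 225 components, or 41.1%. In 129 components, or 23.5%, 1 contig was highest by reads and by FPKM in both pools.

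The 10 components with the most contigs show the range of these profiles. TRINITY_DN19131_c2, with 24 contigs, had 189347 male and 103571 female reads, and its longest contig, TRINITY_DN19131_c2_g6 of 8914 bases, held 96.5% of the male and 77.5% of the female ones. TRINITY_DN18850_c1, with 22 contigs, had 53868 male and 37974 female reads, of which TRINITY_DN18850_c1_g6 held 88.8% and 67.0%. TRINITY_DN18760_c2, with 20 contigs, had 149079 male and 86495 female reads, of which TRINITY_DN18760_c2_g18 held 94.1% and 80.5%. These components have many contigs on paper but close to 1 in male reads, with 1.07 to 1.27 effective contigs. In female reads they were less concentrated, with 1.53 to 2.13. TRINITY_DN16676_c6, with 24 contigs and 13255 male and 9503 female reads, also kept its dominant contig, TRINITY_DN16676_c6_g5, which held 45.1% of male and 30.5% of female reads.

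In the other 6 of these 10 the dominant contig differed beyond counting error. In TRINITY_DN17683_c2, with 24 contigs, TRINITY_DN17683_c2_g2 led the male pool with 26.2% of 26314 reads, and TRINITY_DN17683_c2_g8 led the female pool with 68.5% of 33270 reads. In TRINITY_DN19024_c6, also with 24 contigs, the male leader TRINITY_DN19024_c6_g19 was only 213 bases long and held 31.1% of 4514 reads. Its female leader TRINITY_DN19024_c6_g1, of 3213 bases, held 48.7% of 8800 female reads and 0.598% of the male ones. TRINITY_DN17996_c3, with 21 contigs, was spread widely in both pools, with 8.77 effective contigs in 7011 male reads and 8.41 in 31060 female reads. TRINITY_DN17201_c4, with 22 contigs, had 23419 male and 15682 female reads, and its leaders TRINITY_DN17201_c4_g22 and TRINITY_DN17201_c4_g14 held 40.1% of the male and 25.1% of the female reads. TRINITY_DN18914_c7, with 21 contigs, had 3271 male and 2940 female reads, and TRINITY_DN18914_c7_g7 and TRINITY_DN18914_c7_g19 led with 21.7% of the male and 35.0% of the female ones. The last of the 6, TRINITY_DN18926_c1, is described with the abundant components.

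**Figure D2:**
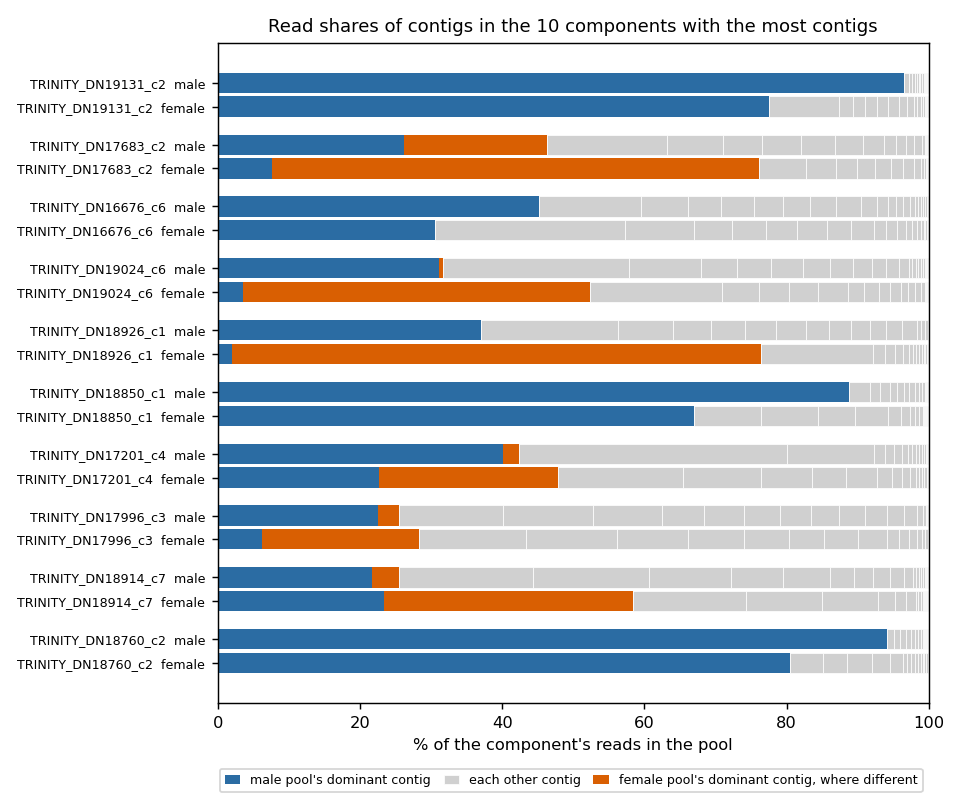
Each pair of bars splits the reads of 1 component by contig, in percent, with the male pool above the female pool, for the 10 components with the most contigs. Blue marks the contig that leads the male pool, orange the one that leads the female pool where it is another, and each grey piece is a further contig. Of these, 4 keep 1 leading contig in both pools and 6 change it.

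Of the 248 components whose dominant contig changed beyond counting error, 142 had sums under 2-fold apart. Such a change was found in 43.4% of the 327 large components under 2-fold apart, near the 45.3% of all 548. Among the 248 changed components, the 5 with the most reads in the smaller pool were TRINITY_DN16924_c2, TRINITY_DN18332_c4, TRINITY_DN16960_c3, TRINITY_DN17683_c2 and TRINITY_DN16718_c0. TRINITY_DN16924_c2, with 16 contigs, had 44504 male and 54491 female reads, or 2249 against 2211 CPM, the counts scaled to 1000000 counts per library. Its male leader TRINITY_DN16924_c2_g2, of 960 bases and 51.0% GC, had 36979 male and 8074 female reads. Its female leader TRINITY_DN16924_c2_g8, of 862 bases and 46.9% GC, had 2 male and 23462 female reads. So a contig seen almost only in the female pool lay in a component of nearly equal sums.

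In the next ones each leader had over 100 reads in both pools. TRINITY_DN18332_c4, with 12 contigs, had 3500 male and 1576 female CPM, led by TRINITY_DN18332_c4_g2 with 30419 male and 6320 female reads, and by TRINITY_DN18332_c4_g4 with 2701 male and 16289 female reads. TRINITY_DN16960_c3, with 17 contigs, had 2150 male and 1104 female CPM, led by TRINITY_DN16960_c3_g14 with 13689 male and 3524 female reads, and by TRINITY_DN16960_c3_g1 with 148 male and 8502 female reads. TRINITY_DN16718_c0, with 12 contigs, had 1074 male and 865 female CPM. Its short contig TRINITY_DN16718_c0_g8, of 892 bases, led the male pool with 72.7% of the reads, and the longer TRINITY_DN16718_c0_g4, of 5302 bases, led the female pool with 57.3%.

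The members with the highest and lowest dominant share, averaged over the pools, had these profiles. TRINITY_DN17387_c7, with 14 contigs, kept 92.6% of 15633 male and 96.0% of 26970 female reads in TRINITY_DN17387_c7_g1. TRINITY_DN19165_c3, with 15 contigs, kept 96.3% of 73721 male and 86.8% of 30582 female reads in TRINITY_DN19165_c3_g2. At the other end, the dominant contigs of TRINITY_DN16791_c1, with 19 contigs, held 17.6% of 8486 male and 16.4% of 28529 female reads, spread over 8.96 and 10.2 effective contigs. In TRINITY_DN17542_c7, with 16 contigs, they held 14.98% of 3833 male and 22.6% of 4545 female reads.

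The sums of large components had a narrower spread of male to female ratios than those of smaller components. By total counts and over all abundances together, their median lay closer to equal, but not within classes of abundance, as given below. The log2 ratio of male to female, scaled by total counts and with 0.5 added to the scaled sums, had a median of 0.13 (quartiles -0.67 and 0.92, SD 1.38) over the 551 large components, all of which had at least 100 reads in both pools together. Over all 13722 components with that many reads the median was 0.68 (quartiles -0.55 and 1.79, SD 2.10). The 1086 components of 6 to 9 contigs lay between, with a median of 0.36 and an SD of 1.66. The sum of a large component combines 10 or more contigs, and the narrower spread was seen for sums only. Over single contigs with at least 20 reads the SD was 2.56 in large components and 2.34 in single-contig ones. Under 2-fold apart were 327 large components, or 59.3%, against 41.2% of components of 2 to 9 contigs and 35.6% of single-contig ones. A male sum 4-fold or more above the female one, called male-higher, was found in 34 large components (6.17%), where 20.8% of all components were called. A female sum 4-fold or more above the male one, called female-higher, was found in 41 (7.44%), where 8.57% of all components were called. Both shares of all components cover every abundance together, and large components had more reads, so shares in classes of abundance are given below. No test of the difference between kinds of component was made, and components are not replicates.

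Abundance differed between the kinds of component, and the narrower spread was also seen within classes of abundance. Among components with 1000 to 10000 reads, the SD of the log2 ratio was 1.08 for the 229 large ones, 1.76 for the 2779 of 2 to 9 contigs and 2.25 for the 1853 with a single contig. With 10000 reads or more it was 1.46 for 302 large components, 2.205 for 512 of 2 to 9 contigs and 4.06 for 40 with a single contig. The median moved with abundance in large components too. It was 1.23 for the 20 with 100 to 1000 reads, 0.47 for those with 1000 to 10000 and -0.17 for those with more. In the same classes it was 1.36, 0.14 and 0.01 for components of 2 to 9 contigs. For single-contig components it was 1.04, -0.58 and 0.02. The median of the large components was thus not the closest to equal in any class. Of the 41 female-higher components, 39 had 10000 reads or more, and of the 34 male-higher ones 11 did. Female-higher shares rose with abundance in the other kinds too. At 1000 to 10000 reads they were 0.873% in large, 7.70% in 2 to 9 contig and 19.2% in single-contig components. With 10000 reads or more they were 12.9%, 18.6% and 25%. Male-higher shares, in the same order, were 9.17%, 12.1% and 10.7% in the first class and 3.64%, 8.20% and 15% in the second.

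**Figure D3:**
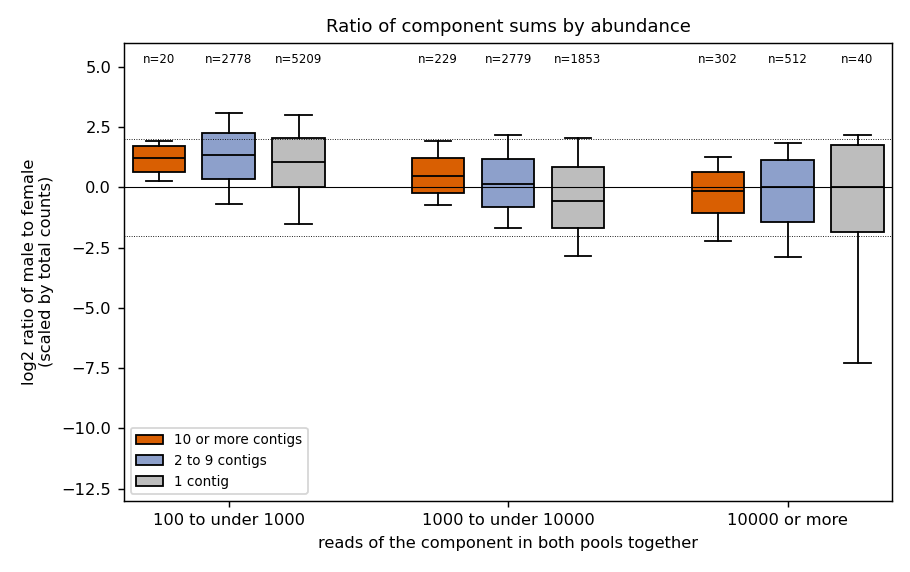
Log2 ratio of male to female component sums, scaled by total counts, in 3 classes of reads in both pools together, for components of 10 or more contigs, of 2 to 9 contigs and of 1 contig. Boxes span the quartiles with the median as a line, whiskers reach the 10th and 90th percentiles, n is the number of components, and dotted lines mark 4-fold. In each class the box of the large components is the shortest.

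The direction of these ratios depends on the scaling. By total counts the male library was 0.803 times the size of the female one, and by the median of ratios over all contigs with counts in both pools it was 2 times. That median had no minimum count, so contigs with few reads weighed in it as much as abundant ones. Single-contig components were 61.4% of all contigs, with medians of 5 male and 2 female reads. The scaling by the median of ratios over all contigs shifted the log2 ratios by -1.32. TMM shifted them by -1.20, and the median of ratios taken only where the mean count reached 1000 shifted them by 0.42. Under the median of ratios over all contigs, 4 large components (0.726%) were male-higher, where 5.39% of all components were called, and 134 (24.3%) were female-higher, where 22.8% were. The median of the large components was then -1.18 and that of all components -0.63. By this scaling the median of the large components lay further from equal than that of all components, the reverse of the order by total counts. A scaling shifts all ratios nearly alike, so it does not bear on the gap between the kinds or on their spread.

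The female-higher components carried far more reads than the male-higher ones. The 41 female-higher components, with 534 contigs, held 35.9% of the female reads of all large components and 10.7% of the whole female library, and 1.15% of the male library. The 34 male-higher components, with 427 contigs, held 12.7% of the male reads of all large components and 3.29% of the whole male library, and 0.560% of the female library. The median female-higher component had 4295 male and 52807 female reads, and the median male-higher one had 2879.5 male and 616 female reads.

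Most female-higher sums were no longer 4-fold apart without their leading contig. Leaving out the contig with the most female reads, 9 of the 41 were still female-higher, 22 were under 2-fold higher or not higher at all, and the median log2 ratio was -0.92 in place of -2.87. Leaving out the contig with the most male reads, 25 of the 34 male-higher components were still male-higher, and the median was 2.25 in place of 2.42. The contig left out held a median of 44.9% of the male reads in the male-higher components and 74.4% of the female reads in the female-higher ones. In 35 of the 41 female-higher components the 2 pools had different dominant contigs beyond counting error, against 10 of the 34 male-higher ones. These counts use the same reads as the ratios, and the contig left out was picked for its reads. The like was not computed for smaller components, and the female-higher and male-higher groups differ in depth. The contrast between them is a description.

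Of the 10 large components with the highest mean CPM, 4 were female-higher and led in the female pool by contigs with few or no male reads. TRINITY_DN18006_c2, with 14 contigs, had 714 male and 10710 female CPM. Its contig TRINITY_DN18006_c2_g4, of 3721 bases, had 112 male and 249783 female reads, and without it the log2 ratio of the sum was 0.29 in place of -3.91. TRINITY_DN18926_c1, with 22 contigs, had 641 male and 7627 female CPM. Its contig TRINITY_DN18926_c1_g17, of 1005 bases and 51.5% GC, had 1 male and 139818 female reads, and a second one, TRINITY_DN18926_c1_g21 of 705 bases and 56.2% GC, had 0 male and 29750 female reads. TRINITY_DN18328_c1, with 16 contigs, had 565 male and 7116 female CPM, of which TRINITY_DN18328_c1_g1 held 3 male and 151304 female reads.

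TRINITY_DN18661_c4, with 11 contigs, had the lowest ratio of male to female of all large components, with 117 male and 7147 female CPM and a log2 ratio of -5.93 (exact counting interval -5.99 to -5.87). Here several contigs carried the difference. TRINITY_DN18661_c4_g2 had 66 male and 51217 female reads, TRINITY_DN18661_c4_g4 had 0 male and 48260 female reads, TRINITY_DN18661_c4_g8 had 1 male and 41941 female reads, and TRINITY_DN18661_c4_g5 had 3 male and 28970 female reads. These 4 were among its shorter contigs, at 478 to 1002 bases. Its longest contig, TRINITY_DN18661_c4_g10 of 5177 bases, had 645 male and 435 female reads. Without TRINITY_DN18661_c4_g2 the log2 ratio was still -5.48.

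The second lowest ratio was that of TRINITY_DN18018_c2, with 17 contigs, which had 62.2 male and 3286 female CPM and a log2 ratio of -5.72 (-5.81 to -5.64). TRINITY_DN18018_c2_g1, its longest contig at 4508 bases, had 95 male and 64579 female reads, and without it the log2 ratio was -3.54. The highest ratios belonged to components with fewer reads. TRINITY_DN16861_c6, with 14 contigs, had 732 male and 48 female reads, or 37.0 against 1.95 CPM, and a log2 ratio of 4.23 (3.83 to 4.70). TRINITY_DN18805_c6, with 11 contigs, had 2172 male and 196 female reads, or 110 against 7.95 CPM, and a log2 ratio of 3.78 (3.58 to 4.01). Its contig TRINITY_DN18805_c6_g1 had 1273 male and 3 female reads, and TRINITY_DN18805_c6_g3 had 378 male and 119 female reads. These 4 components had been picked for their ratios, so the ratios are a description.

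The other 6 of the 10 most abundant large components kept the same dominant contig in both pools. TRINITY_DN17784_c2, with 16 contigs, had 9072 male and 862 female CPM, and TRINITY_DN17784_c2_g7, of 1687 bases, held 92.6% of the male and 84.6% of the female reads. Its sum was 10.5-fold higher in the male pool, and without that contig the log2 ratio was 2.34 in place of 3.40. TRINITY_DN16916_c0, with 16 contigs, had 5057 male and 1015 female CPM. TRINITY_DN16916_c0_g10, of 1480 bases, held 91.8% of the male and 55.5% of the female reads, and without it the log2 ratio of TRINITY_DN16916_c0 was -0.12 in place of 2.32. TRINITY_DN19160_c3, with 13 contigs, had 5156 male and 3258 female CPM, and TRINITY_DN19160_c3_g1, of 6219 bases, held 92.6% and 88.7% of the reads. TRINITY_DN18782_c2, with 10 contigs, had 3228 male and 3357 female CPM, and TRINITY_DN18782_c2_g2, of 2901 bases, held 76.0% and 76.8%. The remaining ones, TRINITY_DN19131_c2 with 9569 male and 4202 female CPM and TRINITY_DN18760_c2 with 7534 male and 3509 female CPM, were described above.

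Contigs of the same component had unlike ratios between the pools. Ratios were computed for the 5429 contigs of large components with at least 20 reads in both pools together, which leaves out 1523 contigs (21.9%). By the same 4-fold limit 1243 contigs (22.9%) were male-higher, where 30.1% of all 38464 contigs with that many reads were called. Another 614 (11.3%) were female-higher, where 8.96% of all contigs were. The SD of the log2 ratio within a component had a median of 1.802 (quartiles 1.33 and 2.49), and the pooled SD within components was 2.35. Over all these contigs, ignoring components, the SD was 2.56, and over single-contig components with at least 20 reads it was 2.34. Ratios thus varied within large components nearly as much as over all their contigs. This was not particular to them. Components of 2 to 9 contigs with 6 or more contigs used had a pooled SD of 2.30 and a median SD of 1.73. Contigs with under 3 reads in a pool, 278 of the 5429, have ratios that depend on the added 0.5, most of all where a pool has no reads. Without them the pooled SD within components was 1.89, that over all contigs 2.03 and that over single-contig components 1.79.

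Contigs past 4-fold were common in all kinds of component, with 30.1% of all contigs male-higher and 8.96% female-higher, and a large component had a median of 10 contigs with enough reads. The counts of components that follow stand beside those shares and are no result about large components. Of the 327 large components under 2-fold apart by their sum, 303 (92.7%) held at least 1 contig at least 4-fold apart, and 145 held contigs that far apart in both directions. Over all 551, contigs at least 4-fold apart in both directions were found in 243 (44.1%), male-higher ones alone in 217, female-higher ones alone in 67 and none in 24. All contigs with enough reads lay on the male side of equal in 51 components and on the female side in 2. These numbers follow the scaling, since the median of ratios over all contigs made 431 contigs male-higher and 1322 female-higher.

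**Figure D4:**
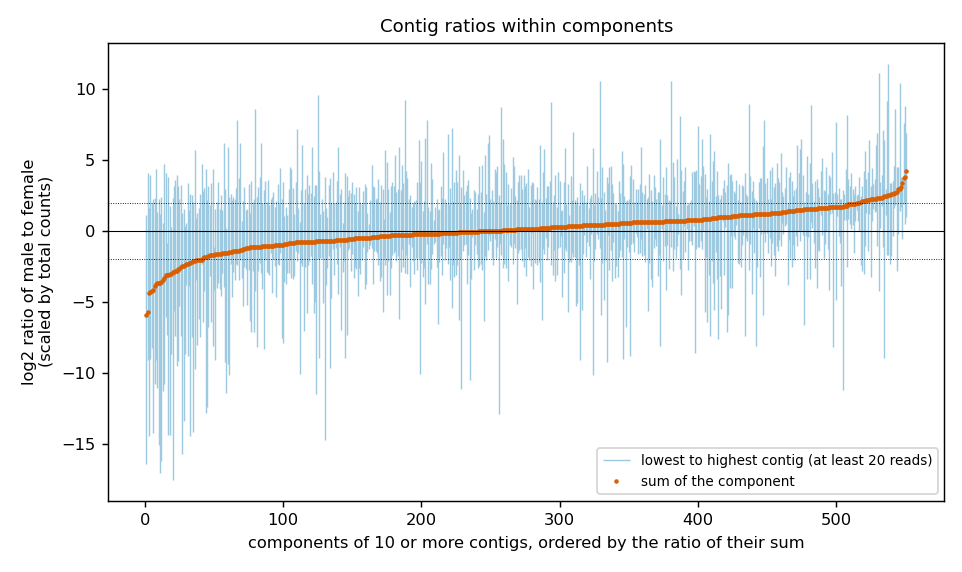
Each of the 551 components of 10 or more contigs is 1 vertical line from its lowest to its highest contig log2 ratio of male to female, scaled by total counts, over contigs with at least 20 reads, and an orange point marks the ratio of its sum. Contigs without reads in 1 pool are drawn at the value that the added 0.5 gives, which is no bound. The lines are long at every position of the order, with a median length of 5.64, and most cross 0.

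The contig ratio also moved with the reads of the contig, in large components as in single-contig ones. For contigs with 20 to 100 reads the median of that log2 ratio (male to female) was 1.64 in large components and 1.81 in single-contig ones. With 100 to 1000 reads it was 1.02 in large components and 1.04 in single-contig ones, and with 1000 to 10000 reads -0.36 and -0.58. The SD in these 3 classes was 2.22, 2.13 and 2.18 in large components and 2.28, 2.14 and 2.25 in single-contig ones. At 10000 reads or more the 191 contigs of large components had an SD of 5.59, with 15.7% male-higher and 36.6% female-higher. The 40 single-contig components of that class had an SD of 4.06, with 15% male-higher and 25% female-higher.

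Some contigs had 1000 or more reads from 1 pool and fewer than 3 from the other. In large components these were 3 of the 825 contigs with that many male reads (0.364%), in 3 components, and 27 of the 1289 with that many female reads (2.09%), in 20 components. The 27 female contigs held 749680 reads, or 3.04% of the whole female library, and 18 of them lay in female-higher components. In components of 2 to 9 contigs they were 9 male contigs (0.440%) and 37 female ones (1.28%), the female ones with 2.04% of the female library. In single-contig components they were 4 male contigs (0.712%) and 12 female ones (1.13%), and these 12 held 0.158%. At a minimum of 100 reads, 25 large components held a male contig of this kind and 42 a female one. These were 35 male contigs (0.997%) and 50 female ones (1.58%). The shares were 1.81% male and 1.34% female in components of 2 to 9 contigs, and 1.26% and 1.74% in single-contig ones. At this minimum the female share was thus not highest in large components.

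Contig lengths within a large component spanned more than 1 order of magnitude. The longest contig was a median of 23.5 times as long as the shortest (quartiles 15.6 and 32.8), and at least 10 times as long in 516 components, or 93.6%. The shortest contig had a median of 232 bases and the longest one of 5950 bases. The longest held a median of 25.4% of the bases of its component. A contig under 300 bases and one of at least 5000 bases were found together in 274 components. Over contigs the median length was 1149 bases (quartiles 421 and 2845) in large components, 659 in components of 2 to 9 contigs and 303 (quartiles 239 and 493) in single-contig ones. The short contigs carried few reads. Contigs under 500 bases, 29.6% of those in large components, held a median of 1.23% of a component's male reads and 0.594% of its female reads.

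The greatest ratio of lengths was that of TRINITY_DN17209_c1, whose 10 contigs ran from 332 to 31248 bases. Its 31248-base contig TRINITY_DN17209_c1_g1 had 2374 male and 4191 female reads and came second in both pools. The first, TRINITY_DN17209_c1_g10 of 1662 bases, had 10824 male and 5598 female reads. TRINITY_DN17916_c1, with 10 contigs of 208 to 18300 bases, came next. Its longest contig TRINITY_DN17916_c1_g1 led the male pool with 46.6% of 5404 reads, and the 1556-base TRINITY_DN17916_c1_g10 led the female pool with 51.5% of 9606 reads.

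GC content varied within large components almost as widely as between contigs at large. The SD of GC content over the contigs of a component had a median of 5.34 percentage points (quartiles 4.36 and 6.43), and the range had a median of 17.9 points. The range was at least 20 points in 190 components. The median SD was 4.93 at exactly 10 contigs and 5.30 at exactly 9, so this spread was not particular to large components. The pooled SD within large components was 5.71, against 6.10 over all contigs of large components and 6.76 over single-contig components. Short contigs vary more in GC content, so lengths were compared at a like size. Among contigs of at least 1000 bases the pooled SD within large components was 4.97, against 5.23 over all such contigs of large components and 5.19 over single-contig components. Median GC was higher in longer contigs of both kinds, and was 42.1% under 500 bases and 46.0% at 4000 bases or more in large components, against 42.0% and 45.6% in single-contig ones. The dominant contig had a GC content above its component's median in 326 male and 351 female profiles of 548.

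**Figure D5:**
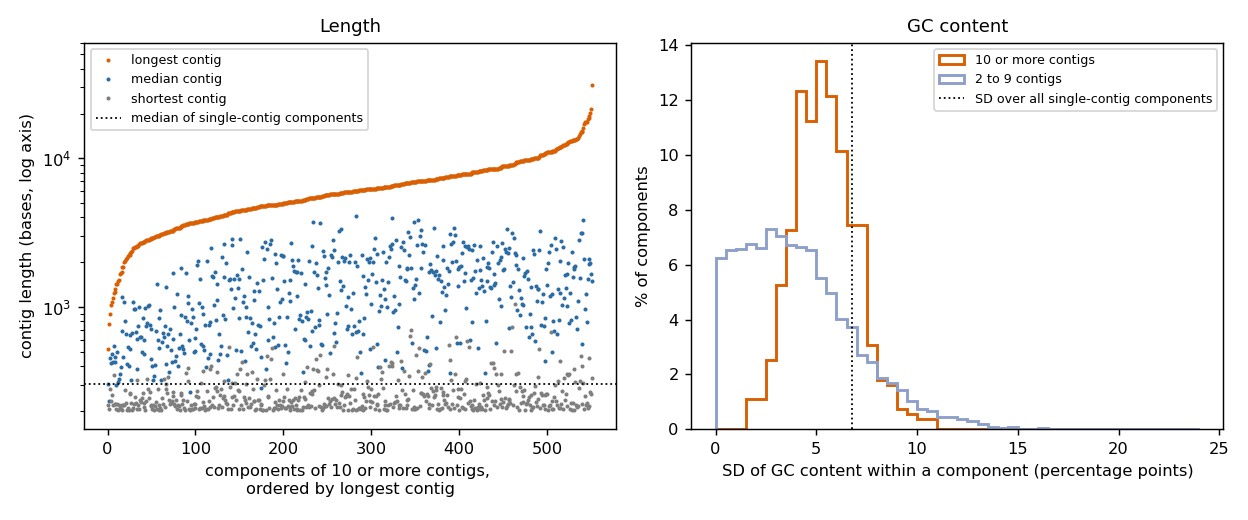
The left panel gives the longest, median and shortest contig of each of the 551 components of 10 or more contigs, in bases on a log axis, with the median single-contig component of 303 bases as a dotted line. The right panel gives the SD of GC content within components of 10 or more and of 2 to 9 contigs, in percent of components, with the SD of 6.76 over single-contig components as a dotted line. The shortest contigs lie near 232 bases at every length of the longest, and the large components centre near an SD of 5.34.

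The widest GC ranges had a short contig with few reads at one end. In TRINITY_DN16949_c0, with 18 contigs, GC ran from 18.7% to 64.1%. TRINITY_DN16949_c0_g9, the 18.7% contig of 273 bases, had 2 male and 5 female reads, and TRINITY_DN16949_c0_g11, the 64.1% contig of 1511 bases, had 49 male and 94 female reads. The component as a whole had 12922 male and 16539 female reads. In TRINITY_DN18038_c4, with 16 contigs, GC ran from 37.1% to 74.0%. Its 74.0% contig TRINITY_DN18038_c4_g10, of 262 bases, had 14 male and 5 female reads. Its 37.1% contig TRINITY_DN18038_c4_g7, of 6106 bases, was the longest and led both pools with 55.3% of 6530 male and 55.4% of 9418 female reads.

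Members just inside the rule had lower dominant shares than components just outside it. The 136 components of exactly 10 contigs had a median dominant share of 43.3% in the male and 50.6% in the female pool, and the 182 of exactly 9 contigs had 49.3% and 53.7%. The same dominant contig led both pools in 51.5% of 134 components of 10 contigs and in 56.8% of 176 of 9. Male-higher were 6 components of 10 contigs (4.41%) and 26 of 9 (14.3%), where 20.8% of all components were. Female-higher were 7 of 10 contigs (5.147%) and 13 of 9 (7.14%), where 8.57% of all components were. The longest contig was a median of 19.9 times as long as the shortest at 10 contigs and 19.3 times at 9. The log2 ratio of the sums, male to female, had a median of 0.39 at 10 contigs and 0.57 at 9.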

How the data were processed

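The authors' deposited table has 1 row per contig with raw read counts and FPKM for each pool, and the length, base numbers and GC percent of the contig, per the file headers. Per the submitters' processing notes, the tools included cutadapt 1.8, Bowtie2 2.2.6 and DESeq 1.16.0. The deposited FPKM divide counts by length and a library total. They were used only within a component, for ranks of contigs, shares of FPKM and Spearman's rho. The sources used here do not give the assembler's version or the counting program. In all 96646 rows the numbers of A, C, G and T added up to the contig length.

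Counts were summed per component with Python 3.11.15 and pandas 2.3.3. Libraries were scaled by total counts, with the median of ratios and TMM (edgeR 4.0.16) as alternatives. The ratio and dominance computations were tested on simulated data. Ties in reads went to the longer contig. Intervals are Wilson for shares and exact (Clopper-Pearson, scipy 1.17.1) for ratios. The floor of 3 counts corresponds to 0.152 CPM in the male and 0.122 CPM in the female library. The components named are the 10 with the most contigs, the 10 with the highest mean CPM, the 2 highest and 2 lowest ratios, the 5 deepest changes of dominant contig, and the 2 extremes of dominant share (either way), GC range and length ratio, 32 in all. The components and lists were chosen with earlier results of these data known.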

Additional observations from a re-analysis of the deposited data

How the results depend on the processing

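No paired analysis was possible because each pool has 1 library, and leaving out a library was not possible for the same reason. Of 114 values recomputed under other settings, 46 stayed close to the reported value (for counts, within 1.5 times), 64 moved and 4 changed sign. With 8 or more contigs, 963 components with 10430 contigs held 38.5% of male and 43.2% of female counts. Their median dominant share was 44.8% male and 50.9% female, 405 changed the dominant contig, 86 were male-higher and 70 female-higher, and the length ratio was 20.9. With 20 or more contigs, 14 components with 304 contigs held 2.65% of male and 2.36% of female counts. Their dominant share was 34.1% male and 39.1% female, 42.9% kept the dominant contig, 8 changed it, 0 were male-higher and 1 female-higher, the length ratio was 31.6 and the GC SD 5.63. Whole read clusters of 10 or more contigs gave 1938 groups with 37476 contigs, 75.1% of male and 79.2% of female counts, dominant shares of 38.4% male and 45.4% female, 909 changes, 124 male-higher and 78 female-higher groups and a length ratio of 26.0. With contigs of at least 500 bases, 204 components with 2424 contigs held 16.8% of male and 17.4% of female counts, with dominant shares of 39.2% male and 43.0% female, 98 changes, a median log2 ratio of -0.091, 10 male-higher and 17 female-higher components and a length ratio of 10.6. With contigs of at least 10 reads, the shares were 21.7% male and 25.5% female, the median log2 ratio -0.019 and the length ratio 18.7. These settings also changed which components were counted. Shares over all components were not computed under them, so these counts are no result about large components.

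Scaling by the median of ratios gave a median log2 ratio of -1.18, 4 male-higher and 134 female-higher components, and 431 male-higher and 1322 female-higher contigs. TMM gave -1.07, 4 and 113 components, and 462 and 1242 contigs. Taking the median of ratios only where the mean count reached 1000 gave 0.56, 65 male-higher and 28 female-higher components, and 1725 male-higher and 453 female-higher contigs, so male-higher components then outnumbered female-higher ones. Shares over all components were computed only for total counts and the median of ratios over all contigs. Shares over all contigs were computed only for total counts and at least 20 reads. Counts of calls under the other settings are thus no result about large components. Ranking by FPKM gave dominant shares of FPKM of 31.7% male and 42.5% female, the same contig in 41.1% and 149 changes. These 149 were leaders by FPKM whose change was still judged by reads. Their number therefore cannot be set against the number of changes by reads. Contigs with at least 100 reads had a median SD of 1.65 within components and 724 were male-higher, and with at least 3 reads in each pool the SD was 1.55. Without the dominant contig 9 of the 41 components stayed female-higher. The GC SD over contigs of at least 1000 bases was 4.54. The cause was not tested. Depth limits contigs under 20 reads, which have no ratio here.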

Other observations

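Large components lay in a narrow band of the assembly's numbering. The read clusters, the higher unit of the assembler's names, were numbered from 0 to 56192 in the table, and the 551 large components came from 548 clusters numbered 16644 to 19311. That range of numbers held 2668 read clusters. Where components of 2 to 9 contigs lay in the numbering was not computed, so the band is not shown to be particular to large components. Of the 548 clusters, 3 held 2 large components each. These 548 clusters also held 2795 single-contig components and 786 of 2 to 9 contigs. Their median was 7 components per cluster, against 1 over all other read clusters. In 9 of them the large component was the only one. All contigs of these clusters together held 31.9% of male and 35.3% of female counts. Of the single-contig components in these clusters, 652 had at least 100 reads in both pools together, with a median log2 ratio of male to female of 0.67 when scaled by total counts.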
